A study of Mus musculus with 16 samples.

Results

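The comparison described here sets mouse embryonic stem cells after 4 h of ERK induction (the 4h group) against the same cells after 2 h (the 2h group), to show what changed between the first and the later hours of the signal. Members were chosen by the sample titles alone: the 4 libraries of 4h and the 4 of 2h, which are 8 of the 16 libraries of the series, and every gene expressed at a testable level, which was 12215 of 52636 gene identifiers. The cells were the line CRAFR26, in which a c-RAF kinase construct that drives the ERK pathway is switched on by 4-hydroxytamoxifen. Each group held 2 libraries from clone 4 and 2 from clone 8. The 2h group received 250 nM 4-hydroxytamoxifen for 2 h, and the 4h group received the same dose for 4 h. Both had been moved 48 h before the experiment from 2i/LIF medium, which holds the MEK inhibitor PD03 at 1 μM, into medium with the FGF receptor inhibitor PD17 at 250 nM in its place. The GSK3 inhibitor Chir (3 μM) and LIF (1000 U/ml) of that medium were stated for routine culture. The other groups of the series are given only side by side: 0h, cells with PD17 and no 4-hydroxytamoxifen, and rev, cells given a MEK inhibitor for 2 h after the 4 h of induction. No library received the solvent of 4-hydroxytamoxifen alone, so time in culture and time of induction cannot be told apart. The labels do not say whether replicates were grown as separate cultures, so p-values measure the spread between these samples, which may be technical.

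ERK is the last kinase of the RAS, RAF, MEK and ERK cascade. Once active it switches on immediate-early genes, whose transcripts rise and decay quickly, and then delayed genes, among them phosphatases and Sprouty proteins that dampen the same cascade. In mouse embryonic stem cells, ERK activity downstream of FGF4 moves cells out of naive pluripotency towards a formative state that is ready to specialise, and in 2i/LIF medium it is held low by the MEK inhibitor.

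The shallowest of the 8 libraries, the second of clone 4 at 2h, held 2172651 counts, the deepest, the first of clone 8 at 2h, held 12680303, and the median was 6602545. The RNA had been depleted of ribosomal RNA, and 8 gene models made mostly of leftover ribosomal and mitochondrial rRNA sequence still took 42.0% to 62.9% of the counts of a library. Their share was 58.5% ± 4.05 (SD, n = 4) at 2h and 54.1% ± 9.31 (SD, n = 4) at 4h, a difference of -4.40 percentage points that the exact permutation test within clones did not separate (two-sided p = 0.389, with 0.0556 the smallest p the design allows). The 2 libraries of 4h from clone 4 had the lowest shares, 42.0% and 51.7%. Levels are given as CPM, counts relative to the composition-scaled (TMM) library size, and 3 counts corresponded to 0.213 to 1.31 CPM. All 10 markers of embryonic stem cells were tested, and their summed level was 1530 to 1744 CPM at 2h and 1585 to 1747 CPM at 4h. Markers of trophoblast summed to 25.9 to 44.3 CPM at 2h and 23.9 to 41.9 CPM at 4h, those of fibroblasts to 9.63 to 14.1 and 10.5 to 17.1 CPM, and those of neural cells to 43.7 to 60.9 and 40.8 to 50.2 CPM. The trophoblast marker Tpbpa, the fibroblast markers Postn and Dcn and the neural marker Dcx were at 0 in all 8 libraries. Markers of 2-cell-like cells summed to 7.64 to 9.20 CPM at 2h and to 10.8 to 12.5 CPM at 4h. Since RNA came from whole cultures, fewer cells of a type and less RNA per cell cannot be told apart.

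Between 2h and 4h, 464 genes rose (3.8% of those tested) and 430 fell (3.52%), together 894 genes or 7.32%, at an adjusted p under 0.05 in edgeR's quasi-likelihood test with clone as a covariate. Changes were moderate: the median log2 fold change was 0.48 for the genes that rose, -0.48 for those that fell and -0.0016 over all tested genes. In the text, ± after a log2 fold change gives its standard error (SE), and a positive value means higher at 4h. A change of at least 2-fold was seen for 74 of the genes that rose and 45 of those that fell. All 4 libraries of 4h lay above all 4 of 2h for 263 of the genes that rose. They lay below all 4 of 2h for 232 of those that fell. The calls were made on the same libraries and favour such separation. Over all tested genes the counts were 528 (4.32%) above and 492 (4.03%) below. Scaling by library size alone, without the composition factor, moved the median log2 fold change of all genes to 0.10 and left 88 genes higher and 12 lower, so that 88.0% of its calls were rises against 51.9% with the factor. Without clone as a covariate, 129 genes were called higher and 90 lower.

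Most called genes changed in the same direction in the 2 clones, which share no library. Clone 4 alone gave 214 genes higher (1.75% of those tested) and 176 lower (1.44%), and clone 8 alone gave 165 higher (1.35%) and 101 lower (0.827%). Of the 214 genes higher in clone 4, 205 had a positive log2 fold change in clone 8, and of its 176 lower genes, 156 had a negative one there. In the other direction, 157 of the 165 genes higher in clone 8 were positive in clone 4, and 99 of its 101 lower genes were negative there. Of all 12215 tested genes, 6083 were positive in clone 8 and 6073 in clone 4. Genes called in both clones numbered 97 for rises and 51 for falls. In the plot of one clone's change against the other's, most called genes lie at the upper right or lower left, which the joint call over both clones favours, and Peg10 lies below the diagonal.

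**Figure D1:**
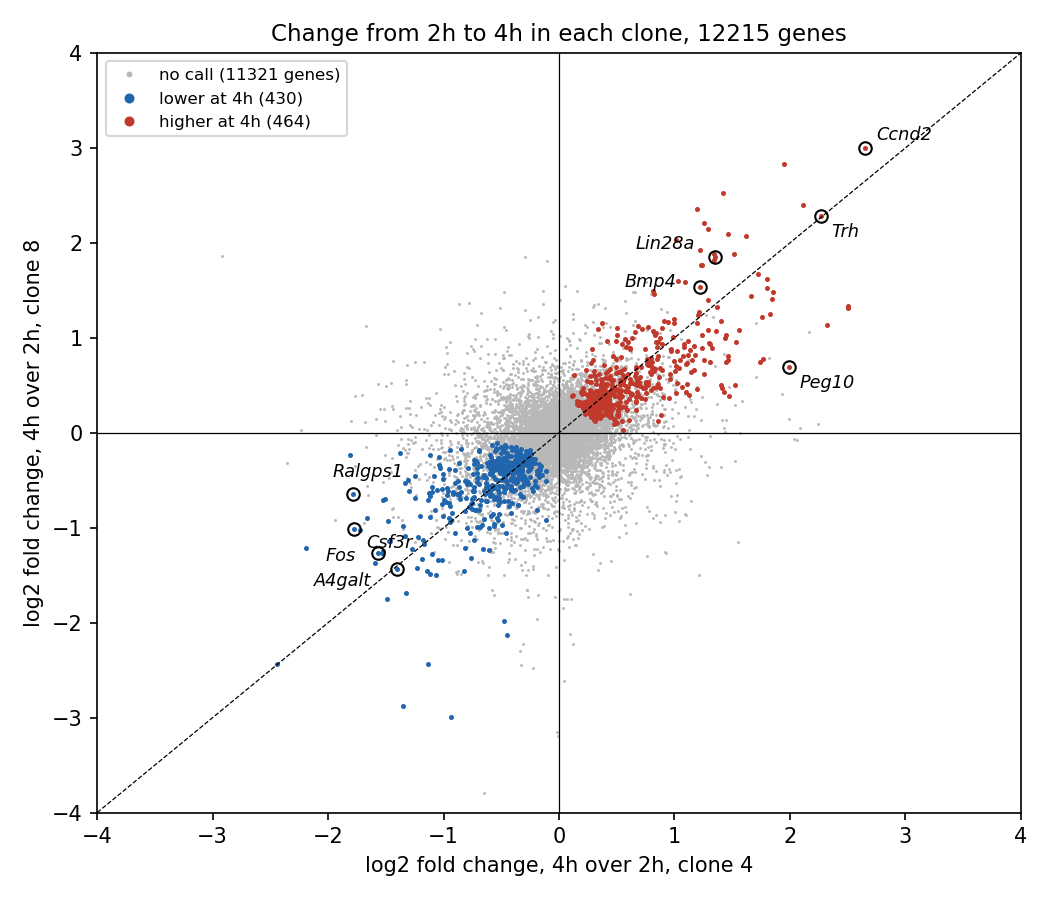
Log2 fold change from 2h to 4h in clone 4 (x axis) against clone 8 (y axis), one point per tested gene, with the 464 genes higher at 4h in red, the 430 lower in blue and the rest in grey; the dashed line marks equal change, and 6 genes lie outside the axes. Ccnd2 and Trh are at the far upper right, and Peg10 rose by 1.99 in clone 4 and 0.69 in clone 8.

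The 12 largest rises were taken among genes with a mean of at least 5 CPM and one direction in all 4 same-numbered differences. These genes are of mixed function, among them a cell cycle protein, secreted signals, a receptor, transcription regulators and a phosphatase. Ccnd2, which encodes cyclin D2, a partner of CDK4 and CDK6 at entry into the cell cycle, rose most, by 7.08-fold (chr6:127125162-127152193, GRCm38, minus strand). It measured 3.50 and 4.82 CPM in clone 4 and 1.27 and 0.568 CPM in clone 8 at 2h. At 4h, Ccnd2 had 22.5 and 25.8 CPM in clone 4 and 9.11 and 4.74 CPM in clone 8 (log2 fold change 2.82 ± 0.22 SE, adjusted p = 1.36e-10). Within each clone every library of 4h was above every library of 2h, and clone 4 was higher than clone 8, so that the second 4h library of clone 8 lay just under the highest 2h library of clone 4. Trh, the precursor of thyrotropin-releasing hormone (chr6:92242061-92244650, minus strand), rose 4.89-fold. Its libraries held 9.19 and 16.2 CPM in clone 4 and 7.18 and 6.18 CPM in clone 8 at 2h. At 4h, Trh had 50.4 and 56.8 CPM in clone 4 and 32.5 and 32.4 CPM in clone 8 (log2 fold change 2.29 ± 0.12 SE, adjusted p = 4.33e-15). No library of 4h was as low as any of 2h, and the mean was 0.92 CPM at 0h and 8.38 CPM in rev.

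Nrp2, the receptor neuropilin-2 that binds semaphorins and VEGF, rose 3.24-fold. Its values were 7.12 and 11.8 CPM in clone 4 and 8.36 and 8.95 CPM in clone 8 at 2h. At 4h, Nrp2 had 30.2 and 30.1 CPM in clone 4 and 26.8 and 21.3 CPM in clone 8 (log2 fold change 1.70 ± 0.14 SE, adjusted p = 3.81e-10). Snai3, a zinc finger factor of the Snail family, rose 3.20-fold, from 7.77 and 5.26 CPM in clone 4 and 4.90 and 4.54 CPM in clone 8 to 21.4 and 25.6 CPM in clone 4 and 15.8 and 14.2 CPM in clone 8 (log2 fold change 1.68 ± 0.16 SE, adjusted p = 5.12e-09). For both genes the groups did not overlap, and clone 4 had the 2 highest libraries at 4h. Lin28a, the RNA-binding protein that blocks maturation of let-7 microRNAs, rose 3.05-fold. It went from 12.04 and 16.2 CPM in clone 4 and 7.26 and 8.38 CPM in clone 8 to 35.1 and 32.2 CPM in clone 4 and 31.0 and 25.3 CPM in clone 8 (log2 fold change 1.61 ± 0.13 SE, adjusted p = 1.41e-10), again without overlap.

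Bmp4, a ligand of the BMP family, rose 2.76-fold. Its libraries held 6.99 and 9.63 CPM in clone 4 and 8.03 and 9.44 CPM in clone 8 at 2h. At 4h, Bmp4 had 18.5 and 17.4 CPM in clone 4 and 25.8 and 25 CPM in clone 8 (log2 fold change 1.47 ± 0.16 SE, adjusted p = 8.22e-08). All 4 libraries of 4h were above all of 2h, and here clone 8 had the higher values. Id1, a dimerisation inhibitor of bHLH factors and a known BMP target, rose 2.96-fold, from 4.66 and 10.5 CPM in clone 4 and 3.13 and 2.63 CPM in clone 8 to 16.7 and 14.8 CPM in clone 4 and 10.3 and 9.998 CPM in clone 8 (log2 fold change 1.56 ± 0.20 SE, adjusted p = 9.93e-07). The overlap came from the second 2h library of clone 4, the library with the fewest counts. T (Brachyury), the T-box factor of the primitive streak, rose 3.02-fold, from 5.96 and 7.44 CPM in clone 4 and 1.35 and 0.852 CPM in clone 8 to 12.4 and 16.8 CPM in clone 4 and 5.89 and 5.26 CPM in clone 8 (log2 fold change 1.59 ± 0.23 SE, adjusted p = 9.36e-06), with separate groups within each clone and overlap across them. The call for T was lost without clone as a covariate.

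Ppm1j (a protein phosphatase of the PP2C family), Jade2 (a subunit of a histone acetyltransferase complex) and Exoc3l (an exocyst-related protein) rose after 2h and did not pass the test between 0h and 2h (adjusted p = 0.842, 0.901 and 0.0973 for that step). Ppm1j measured 2.52 ± 0.869 CPM at 0h, 3.06 ± 0.711 at 2h and 9.88 ± 3.37 at 4h (SD, n = 4), a log2 fold change from 2h to 4h of 1.78 ± 0.22 (SE, adjusted p = 5.61e-07). Jade2 measured 3.09 ± 1.02, 3.94 ± 1.83 and 11.8 ± 4.29 CPM at the same times (1.76 ± 0.22, adjusted p = 7.65e-07). Exoc3l measured 3.67 ± 0.826, 5.27 ± 1.75 and 14.3 ± 2.75 CPM (1.53 ± 0.15, adjusted p = 1.63e-08). The libraries of 2h and 4h did not overlap for any of these 3 genes. In rev, Jade2 stood at 10.4 ± 4.31 CPM, and Ppm1j and Exoc3l at 2.85 ± 0.591 and 3.54 ± 1.19 CPM. Peg10, an imprinted gene derived from a retrotransposon that is expressed from the paternal allele, completed the 12 (2.76-fold) and is described with the clones. Exons of Ccnd2, Lin28a, Exoc3l and Bmp4, and of Caskin1 among the falls, overlap an antisense gene in the annotation, and reads of the pair cannot be told apart because the strand setting was not given in the sources used here.

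**Figure D2:**
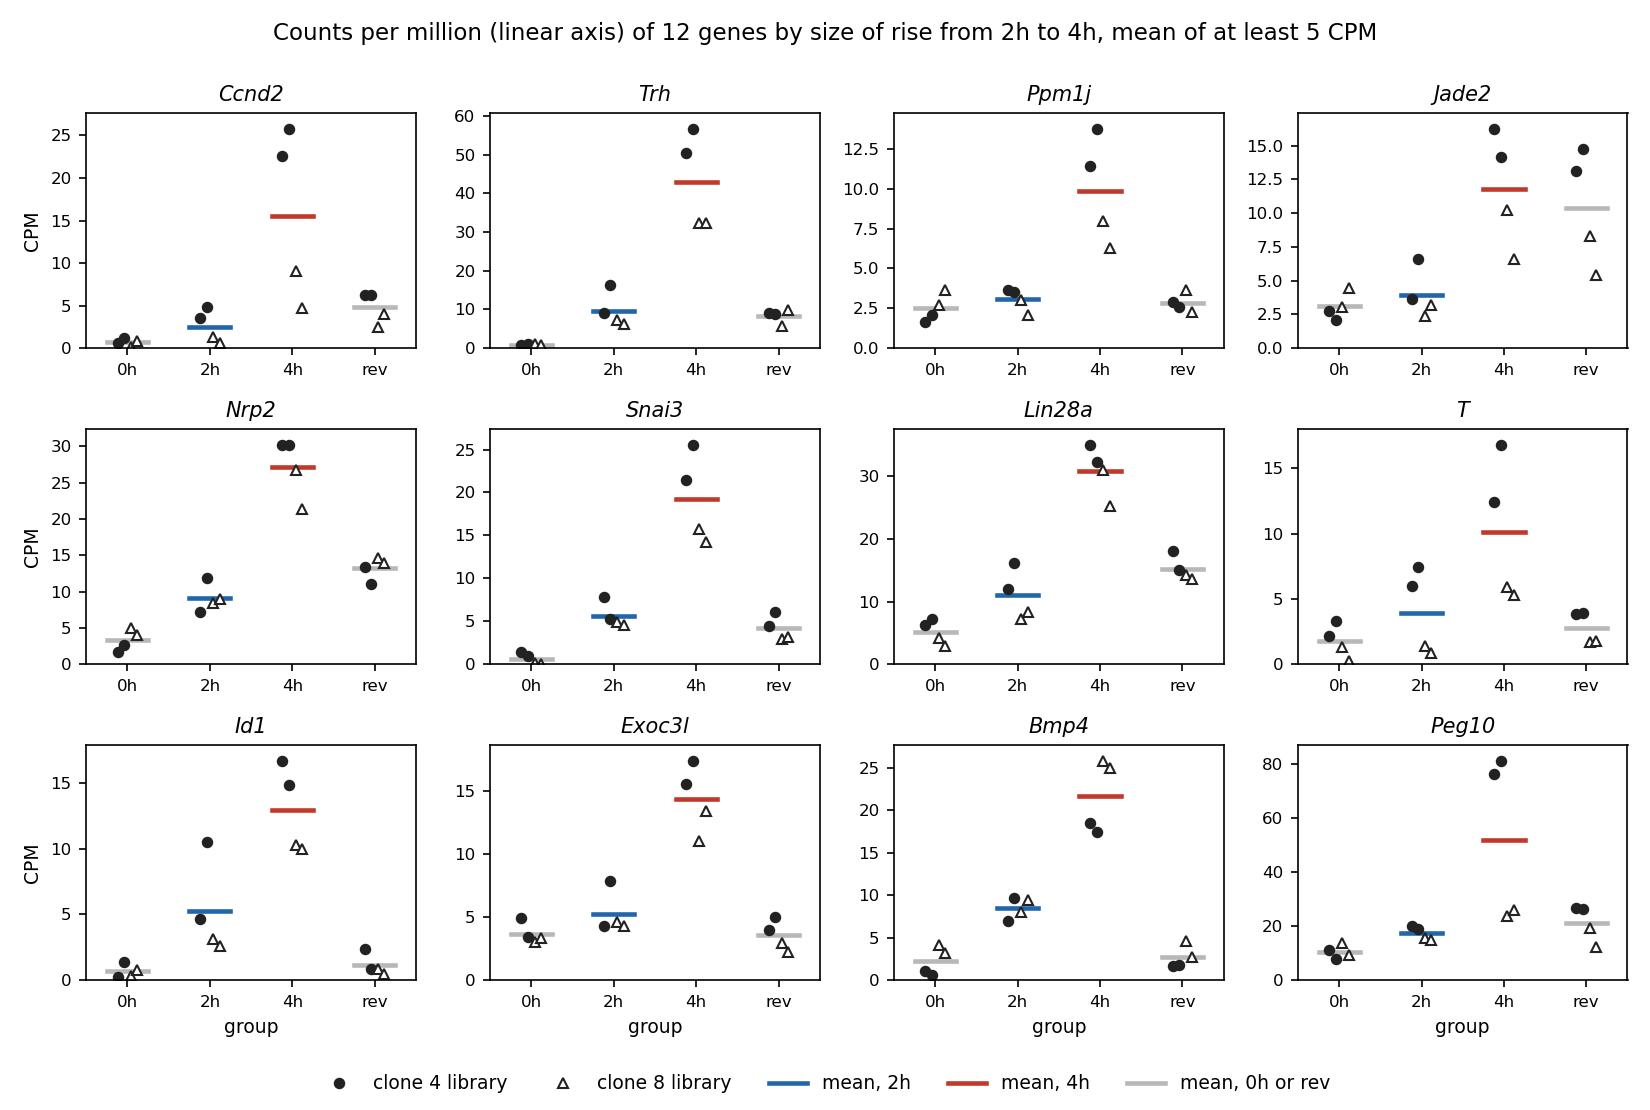
CPM on a linear axis in each library of 0h, 2h, 4h and rev for the 12 genes named for the size of their rise, with filled circles for clone 4, open triangles for clone 8 and a bar at each group's mean. The 4h libraries of Trh sit between 32.4 and 56.8 CPM, above all libraries of 2h, and those of Peg10 split by clone.

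Among the 12 genes named for their fall, all with a mean of at least 5 CPM and one direction in all 4 same-numbered differences, Csf3r, the receptor for granulocyte colony-stimulating factor (chr4:126024550-126044440, plus strand), fell most, with a level at 2h 2.79-fold that of 4h. It held 9.97 and 9.20 CPM in clone 4 and 6.17 and 5.04 CPM in clone 8 at 2h. At 4h, Csf3r had 3.41 and 2.22 CPM in clone 4 and 3.23 and 2.10 CPM in clone 8 (log2 fold change -1.48 ± 0.20 SE, adjusted p = 6.48e-06). Every library of 4h was below every library of 2h, and the mean at 0h was 14.0 CPM. A4galt, the enzyme that makes the glycolipid Gb3 (chr15:83226722-83251774, minus strand), had 23.7 and 17.1 CPM in clone 4 and 23.5 and 23.8 CPM in clone 8 at 2h. At 4h, A4galt had 7.81 and 8.64 CPM in clone 4 and 8.16 and 9.47 CPM in clone 8 (log2 fold change -1.43 ± 0.12 SE, adjusted p = 2.03e-10). Its groups did not overlap, and its mean had been 31.4 CPM at 0h. Fos, the immediate-early partner of Jun in AP-1 (chr12:85473890-85477273, plus strand), is given with the immediate-early genes.

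Ccn2 (connective tissue growth factor, a secreted matrix-associated protein) and Ppp1r10 (the nuclear targeting subunit PNUTS of protein phosphatase 1) were above their 0h levels at 2h. Ccn2 had 77.0 and 76.6 CPM in clone 4 and 59.2 and 49.5 CPM in clone 8 at 2h. At 4h, Ccn2 had 37.7 and 30.7 CPM in clone 4 and 23.2 and 25.3 CPM in clone 8 (log2 fold change -1.14 ± 0.10 SE, adjusted p = 7.73e-10), beside 19.5 ± 2.88 CPM at 0h (SD, n = 4). Ppp1r10 had 91.8 and 88.9 CPM in clone 4 and 86.7 and 82.4 CPM in clone 8 at 2h. At 4h, Ppp1r10 had 41.2 and 44.7 CPM in clone 4 and 49.2 and 46.6 CPM in clone 8 (log2 fold change -0.95 ± 0.08 SE, adjusted p = 2.03e-10), beside 47.7 ± 4.14 CPM at 0h. Neither gene's groups overlapped, and the 4 libraries of each group of Ppp1r10 lay close together. The microRNA Mir1894 lies within an exon of Ppp1r10 on the same strand, and Ccn2 overlaps an antisense gene, so shared reads cannot be assigned.

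The other 7 of these genes were Ralgps1 (-1.23 ± 0.20), Prickle2 (-1.21 ± 0.17), Pitpnc1 (-1.19 ± 0.17), Caskin1 (-1.13 ± 0.15), Xylt1 (-1.03 ± 0.20), Pou2f3 (-0.95 ± 0.17) and Rasgrp1 (-0.91 ± 0.19), each as log2 fold change ± SE, with adjusted p from 3.55e-06 (Caskin1) to 0.00159 (Rasgrp1). Ralgps1 is an exchange factor for Ral, Prickle2 a planar cell polarity protein, Pitpnc1 a phosphatidylinositol transfer protein, Caskin1 a scaffold that binds CASK, Xylt1 the enzyme that starts glycosaminoglycan chains and Pou2f3 a POU-domain transcription factor. Rasgrp1, an exchange factor that loads RAS with GTP, had 6.73 and 7.88 CPM in clone 4 and 6.25 and 7.03 CPM in clone 8 at 2h. At 4h, Rasgrp1 had 2.64 and 3.27 CPM in clone 4 and 4.75 and 4.999 CPM in clone 8, with no overlap, after a mean of 15.2 CPM at 0h. For Xylt1 and Pou2f3 clone 8 was higher than clone 4 throughout, so the groups separated within clones and overlapped across them. Xylt1, Pou2f3 and Rasgrp1 lost their call under library-size scaling, and Xylt1 and Pou2f3 also without clone as a covariate. With both 4h libraries of clone 4 left out, Ralgps1, Xylt1, Pou2f3 and Rasgrp1 were not called, and the other 20 of the 24 genes named by size were. Of 111 called list genes outside these 24, 35 kept their call in that setting, 19 under library-size scaling and 22 without clone as a covariate.

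**Figure D3:**
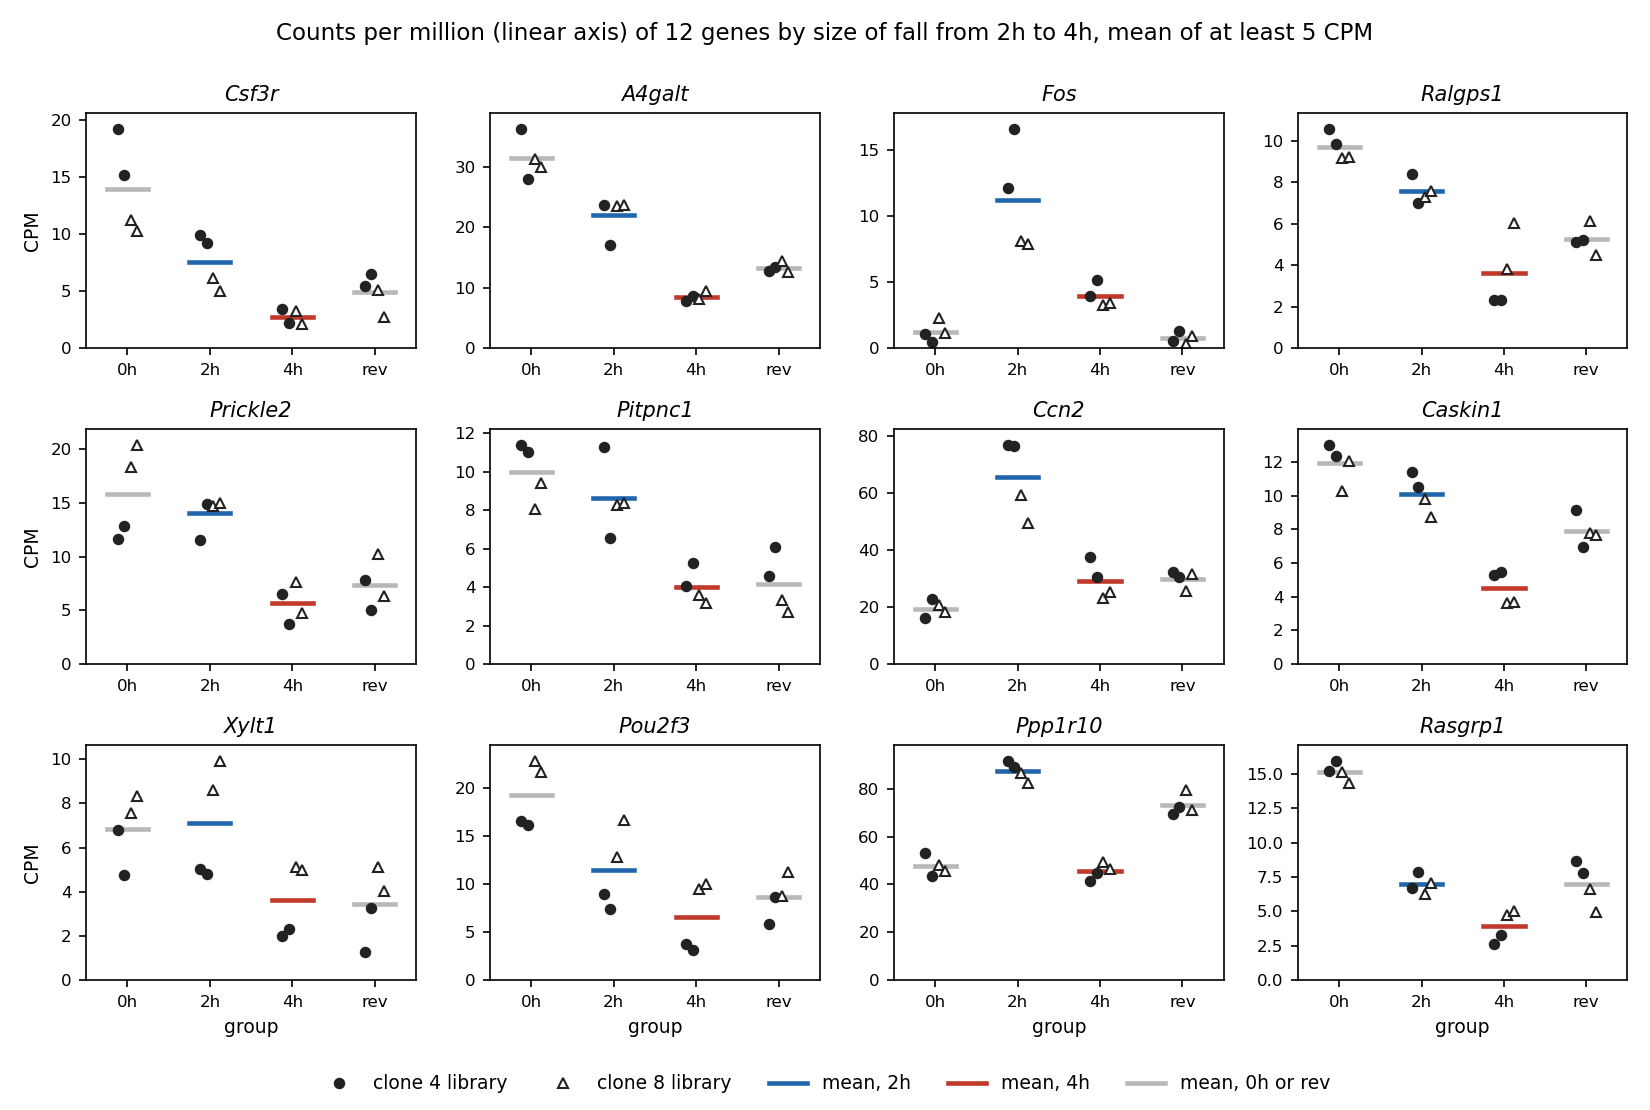
CPM on a linear axis in each library of 0h, 2h, 4h and rev for the 12 genes named for the size of their fall, with filled circles for clone 4, open triangles for clone 8 and a bar at each group's mean. Ccn2, Fos and Ppp1r10 are highest at 2h, and Csf3r, A4galt and Rasgrp1 are highest at 0h.

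Immediate-early genes split between the directions. Of 31 tested, 4 rose (12.9%, against 3.8% of all tested genes) and 5 fell (16.1%, against 3.52%), with a median log2 fold change of 0.03. Under library-size scaling 2 were higher and 2 lower, and with both 4h libraries of clone 4 left out 2 were higher and 3 lower. Egr1, a zinc finger factor and the most abundant of those that fell, had 625 and 565 CPM in clone 4 and 366 and 355 CPM in clone 8 at 2h. At 4h, Egr1 had 336 and 368 CPM in clone 4 and 202 and 229 CPM in clone 8 (log2 fold change -0.75 ± 0.12 SE, adjusted p = 9.98e-05). Each clone separated, and the ranges met because the 4h libraries of clone 4 were close to the 2h libraries of clone 8. The level at 4h was still far above the 26.3 ± 5.56 CPM (SD, n = 4) of 0h. Its call was lost under library-size scaling, without clone as a covariate and in DESeq2.

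The AP-1 genes Fos and Jun fell together. Fos had 12.2 and 16.6 CPM in clone 4 and 8.11 and 7.88 CPM in clone 8 at 2h. At 4h, Fos had 3.96 and 5.14 CPM in clone 4 and 3.23 and 3.42 CPM in clone 8 (log2 fold change -1.41 ± 0.21 SE, adjusted p = 2.49e-05). Jun had 5.96 and 8.32 CPM in clone 4 and 6.50 and 5.82 CPM in clone 8 at 2h. At 4h, Jun had 3.41 and 2.34 CPM in clone 4 and 2.28 and 2.63 CPM in clone 8 (log2 fold change -1.26 ± 0.23 SE, adjusted p = 0.000359). In both, every library of 4h was below every library of 2h and the 4h mean was above the 0h mean, 3.94 against 1.24 CPM for Fos and 2.66 against 1.13 CPM for Jun. Zfp36, which binds and destabilises AU-rich mRNAs, and Arc, a capsid-like protein, fell as well (Zfp36 at -0.65 ± 0.17 with adjusted p = 0.0159 and Arc at -0.44 ± 0.09 with adjusted p = 0.00144). The AP-1 members Junb and Fosl2 and the bHLH factor Myc were not called, at -0.13 ± 0.09, 0.24 ± 0.24 and -0.08 ± 0.12, and Myc was at 0.048 without the second 2h library of clone 8. Fosl1, another AP-1 member, came close to the threshold at 0.98 ± 0.32 (adjusted p = 0.0552).

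Those that rose were Id1 (1.56 ± 0.20), Nab1 (0.80 ± 0.12), Nr4a1 (0.50 ± 0.15) and Zfp36l1 (0.45 ± 0.12). Nab1, a corepressor that binds Egr proteins, had 18.5 and 14.9 CPM in clone 4 and 13.8 and 12.4 CPM in clone 8 at 2h. At 4h, Nab1 had 32.4 and 28.2 CPM in clone 4 and 23.7 and 20.8 CPM in clone 8 (adjusted p = 1.56e-05). All 4 libraries of 4h were above all of 2h, and the call held in all 19 alternative settings. Nr4a1, an orphan nuclear receptor, lay between 8.42 and 11.4 CPM at 2h and between 12.1 and 13.5 CPM at 4h (adjusted p = 0.0341), a small step with no overlap. Zfp36l1, a relative of Zfp36 with the same kind of RNA binding, rose while Zfp36 fell (adjusted p = 0.0121).

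**Figure D4:**
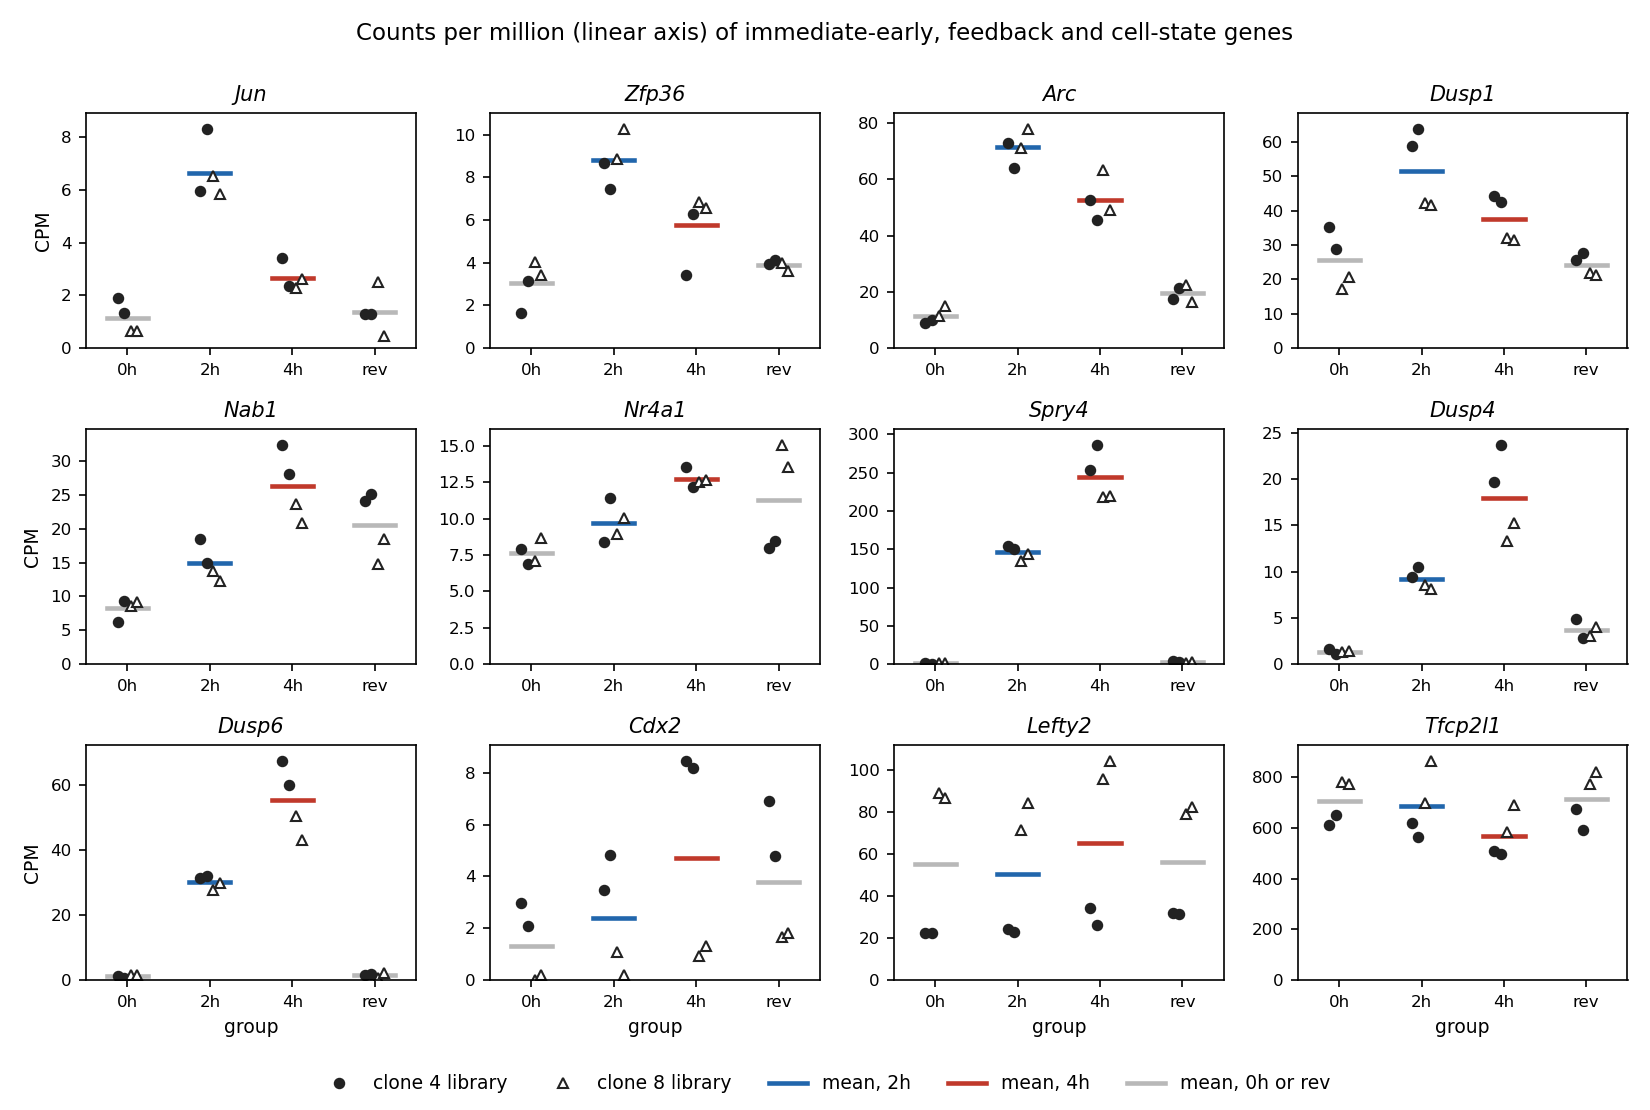
CPM on a linear axis in each library for immediate-early genes (Jun, Zfp36, Arc, Nab1, Nr4a1), feedback genes (Dusp1, Spry4, Dusp4, Dusp6) and cell-state genes (Cdx2, Lefty2, Tfcp2l1), with filled circles for clone 4, open triangles for clone 8 and a bar at each group's mean. Jun, Arc and Dusp1 are highest at 2h, Spry4, Dusp4 and Dusp6 are highest at 4h, and Cdx2 and Lefty2 differ in level between the clones.

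Promoters of 2 genes that rose (Nab1 and Plaur, the urokinase receptor) and 2 that fell (Zfp36 and Dusp1) are shown as examples. Those of Nab1, Plaur and Zfp36 hold the motif read by Egr1, whose transcript fell, and that of Dusp1 holds neither this motif nor that of AP-1. Each is the 150 bases before the annotated start, read 5′ to 3′ on the gene's strand from RefSeq (GRCm38.p6), with matches to the motifs named after them in capitals.
Nab1 (chr1:52500449-52500598, minus strand): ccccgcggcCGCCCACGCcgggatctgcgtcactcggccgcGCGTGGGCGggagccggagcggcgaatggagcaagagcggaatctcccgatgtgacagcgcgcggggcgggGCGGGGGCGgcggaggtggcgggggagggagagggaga
Plaur (chr7:24462333-24462482, plus strand): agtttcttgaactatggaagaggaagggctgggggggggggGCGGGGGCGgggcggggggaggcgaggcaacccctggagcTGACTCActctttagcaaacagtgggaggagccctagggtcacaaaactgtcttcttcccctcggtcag
Zfp36 (chr7:28379229-28379378, minus strand): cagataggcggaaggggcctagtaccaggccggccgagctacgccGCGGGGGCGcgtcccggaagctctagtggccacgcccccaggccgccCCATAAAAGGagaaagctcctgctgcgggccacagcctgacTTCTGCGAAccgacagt
Dusp1 (chr17:26508473-26508622, minus strand): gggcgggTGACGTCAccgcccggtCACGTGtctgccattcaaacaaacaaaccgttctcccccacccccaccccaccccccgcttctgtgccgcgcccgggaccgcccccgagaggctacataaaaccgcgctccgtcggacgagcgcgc
The capitals mark the Egr motif (GCGNGGGCG on either strand) at 3 places in Nab1, beginning 141, 109 and 38 bases before the start, at 109 bases in Plaur and at 105 bases in Zfp36. They also mark the AP-1 motif (TGANTCA) 69 bases before the start of Plaur, a CArG box, the site of serum response factor, 58 bases before that of Zfp36, a STAT motif (TTCNNNGAA) 17 bases before it, and the cyclic AMP element (TGACGTCA) and E-box (CACGTG) 143 and 126 bases before that of Dusp1. The letters of the Egr motif overlap those of GC boxes, which were not counted. Over the 250 bases before the start, the Egr motif was found for 15.2% of the genes that rose, 12.2% of those that fell and 10.9% of all 9235 tested genes with a RefSeq promoter. The AP-1 motif was found for 5.15%, 6.69% and 4.98%, and the cyclic AMP element for 2.42%, 5.23% and 3.13%. In the same order, the shares were 12.4%, 11% and 10.3% for the E-box, 7.88%, 7.85% and 6.85% for the STAT motif and 2.12%, 1.74% and 1.33% for the CArG box. The ETS motif (CCGGAAGT) was found for 5.15%, 3.2% and 7.04%, below the share of all genes in both sets, and the TATA motif (TATAAA) for 8.48%, 9.3% and 7.35%. Matches are descriptions of letters in these windows.

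Several genes that restrain the ERK cascade rose. Of 20 tested feedback inhibitors, 8 rose (40%, against 3.8% of all tested genes) and 2 fell (10%, against 3.52%), and the list's median log2 fold change was 0.27. With both 4h libraries of clone 4 left out, 3 were higher and none lower with a median of 0.14, and under library-size scaling 4 were higher and none lower. Spry4, a Sprouty protein that inhibits signalling from receptor tyrosine kinases to RAS, had 154 and 149.8 CPM in clone 4 and 135 and 144 CPM in clone 8 at 2h. At 4h, Spry4 had 254 and 287 CPM in clone 4 and 219 and 220.0 CPM in clone 8 (log2 fold change 0.74 ± 0.08 SE, adjusted p = 1.15e-07). All of 4h was above all of 2h, beside 0.998 ± 0.557 CPM at 0h (SD, n = 4) and 3.12 ± 1.20 CPM in rev. Among its relatives, Spry1 and the Spred family member Spred1 also rose (Spry1 at 0.80 ± 0.18 with adjusted p = 0.0035 and Spred1 at 0.40 ± 0.10 with adjusted p = 0.0105), whereas Spry2 was at 0.12 ± 0.08 (adjusted p = 0.417).

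The dual-specificity phosphatases moved in both directions. Dusp6, a cytoplasmic phosphatase selective for ERK, had 31.3 and 32.0 CPM in clone 4 and 27.6 and 30.0 CPM in clone 8 at 2h. At 4h, Dusp6 had 67.4 and 59.9 CPM in clone 4 and 50.5 and 42.9 CPM in clone 8 (log2 fold change 0.86 ± 0.10 SE, adjusted p = 1.6e-07). The nuclear phosphatase Dusp4 had 9.45 and 10.5 CPM in clone 4 and 8.53 and 8.09 CPM in clone 8 at 2h. At 4h, Dusp4 had 19.7 and 23.7 CPM in clone 4 and 13.3 and 15.3 CPM in clone 8 (log2 fold change 0.97 ± 0.14 SE, adjusted p = 6.8e-06). Neither gene's groups overlapped. Dusp2, another nuclear phosphatase, rose at a lower level (Dusp2 at 1.03 ± 0.20 with adjusted p = 0.000781, mean 2.80 CPM at 2h and 5.57 CPM at 4h). Dusp1, an immediate-early nuclear phosphatase, fell from 58.8 and 63.9 CPM in clone 4 and 42.2 and 41.8 CPM in clone 8 to 44.2 and 42.4 CPM in clone 4 and 32.1 and 31.6 CPM in clone 8 (log2 fold change -0.45 ± 0.08 SE, adjusted p = 0.000483), with separate groups in each clone. Dusp14 also fell (Dusp14 at -0.59 ± 0.13 with adjusted p = 0.00272), and Dusp5, Dusp7 and Dusp10 were not called, at 0.32 ± 0.14, 0.32 ± 0.12 and 0.17 ± 0.21. At the receptor level, Errfi1, an inhibitor of EGF receptors, and Il17rd (Sef), an inhibitor of FGF signalling, rose (Errfi1 at 0.38 ± 0.10 with adjusted p = 0.0141 and Il17rd at 0.23 ± 0.07 with adjusted p = 0.0487), and the call for Il17rd sat at the threshold and was lost in many of the alternative settings.

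Of 31 tested genes of the cascade itself, from RAS to the kinases downstream of ERK, none rose and 2 fell at an adjusted p under 0.05 in edgeR's quasi-likelihood test. These 6.45% lie near the 7.32% of all tested genes called in either direction. At an unadjusted p under 0.05, 5 were higher and 4 lower, where 10.5% of all tested genes were higher and 10.4% lower. The 2 were Rasgrp1, given above, and Rps6ka2 (RSK3), a kinase activated by ERK (Rps6ka2 at -0.47 ± 0.15 with adjusted p = 0.0445), whose call held in only 6 of 19 alternative settings. Map2k1 (MEK1) and Mapk3 (ERK1) were not called, at -0.08 ± 0.08 and -0.12 ± 0.12, and under library-size scaling, which moved the median of all genes to 0.10, they were at 0.045 and 0.035. Among 16 tested ETS factors, a family whose members are ERK targets or substrates, 3 rose (18.8%, against 3.8% of all tested genes) and 1 fell (6.25%, against 3.52%). Etv4, of the PEA3 family, had 26.2 and 25.4 CPM in clone 4 and 22.9 and 24.3 CPM in clone 8 at 2h. At 4h, Etv4 had 52.6 and 57.6 CPM in clone 4 and 47.9 and 39.99 CPM in clone 8 (log2 fold change 1.03 ± 0.11 SE, adjusted p = 4.56e-08), with no overlap and the call kept in all 19 alternative settings. Its family members Etv1 and Etv5 were at 0.47 ± 0.15 (adjusted p = 0.0457) and 0.14 ± 0.07 (adjusted p = 0.215). The repressor Etv6 rose and Spic fell (Etv6 at 0.29 ± 0.09 with adjusted p = 0.0326 and Spic at -0.60 ± 0.14 with adjusted p = 0.00688). The calls for Etv1 and Etv6 held in 5 and 9 of the 19 settings.

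Some naive pluripotency factors fell. Of 25 tested naive pluripotency genes, 1 rose (4.00%, near the 3.8% of all tested genes) and 4 fell (16%, against 3.52%), with a median of 0.02. None was called under library-size scaling. The median was -0.05 with both 4h libraries of clone 4 left out, where 1 gene was called lower, and -0.0046 with the share of the 8 most abundant models as a covariate. Nanog, a homeodomain factor of the naive network, had 266 and 287 CPM in clone 4 and 396 and 425 CPM in clone 8 at 2h. At 4h, Nanog had 180.3 and 184 CPM in clone 4 and 311 and 324 CPM in clone 8 (log2 fold change -0.48 ± 0.07 SE, adjusted p = 2.5e-05). Within each clone all of 4h was below all of 2h, and clone 8 was higher than clone 4 throughout. Tfcp2l1, a CP2-family factor downstream of LIF, and Prdm14, which restrains FGF signalling, fell (Tfcp2l1 at -0.27 ± 0.08 with adjusted p = 0.0349 and Prdm14 at -0.48 ± 0.13 with adjusted p = 0.023). Fgf4 fell as well (-0.49 ± 0.09 with adjusted p = 0.000222). It encodes the ligand upstream of ERK in embryonic stem cells whose FGF receptors are not inhibited, as they were here by PD17. Fgf4 had 75.5 and 70.1 CPM in clone 4 and 96.7 and 101 CPM in clone 8 at 2h. At 4h, Fgf4 had 47.6 and 48.0 CPM in clone 4 and 75.6 and 79.2 CPM in clone 8, each clone separate, below its mean of 130.0 CPM at 0h. Dppa4, a chromatin-associated protein of pluripotent cells, rose (Dppa4 at 0.45 ± 0.11 with adjusted p = 0.00567). Pou5f1 (Oct4), the POU factor required for pluripotency, was at 136 ± 6.69 CPM at 2h and 151 ± 11.3 CPM at 4h (SD, n = 4), a log2 fold change of 0.16 ± 0.07 that was not called (adjusted p = 0.209).

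Of 19 tested formative and primed epiblast genes, 8 rose (42.1%, against 3.8% of all tested genes) and 3 fell (15.8%, against 3.52%), with a median log2 fold change of 0.58. With both 4h libraries of clone 4 left out, 4 were called higher and 1 lower with a median of 0.37, and library-size scaling left 4 higher and none lower. Sox4, an HMG-box factor, rose most, from 2.72 and 2.63 CPM in clone 4 and 2.03 and 1.99 CPM in clone 8 to 7.70 and 7.83 CPM in clone 4 and 8.73 and 5.79 CPM in clone 8 (log2 fold change 1.80 ± 0.20 SE, adjusted p = 1.71e-07). Utf1, a chromatin protein of pluripotent cells, had 21.5 and 20.6 CPM in clone 4 and 50.9 and 58.4 CPM in clone 8 at 2h. At 4h, Utf1 had 47.6 and 57.4 CPM in clone 4 and 91.0 and 92.9 CPM in clone 8 (log2 fold change 0.97 ± 0.10 SE, adjusted p = 4.12e-08). Both separated within each clone, and Sox4 also across clones. Dnmt3l, the cofactor of the de novo DNA methyltransferases, rose with a higher level in clone 8 throughout (Dnmt3l at 1.23 ± 0.17 with adjusted p = 3.77e-06, mean 6.62 CPM at 2h and 15.0 CPM at 4h), while the methyltransferase Dnmt3b was at 0.27 ± 0.09 and was not called. Pou3f1 (Oct6), Sox11, Tcf15 and Lef1 rose from under 10 CPM (Pou3f1 at 0.58 ± 0.16 with adjusted p = 0.0222, Sox11 at 1.17 ± 0.24 with adjusted p = 0.00118, Tcf15 at 1.00 ± 0.27 with adjusted p = 0.0168 and Lef1 at 0.72 ± 0.22 with adjusted p = 0.0407).

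Some genes of the same list fell. Zic2 and Zic5, neighbouring genes for zinc finger factors of the epiblast, fell (Zic2 at -0.47 ± 0.10 with adjusted p = 0.00121 and Zic5 at -0.67 ± 0.11 with adjusted p = 0.000134), and Foxd3, a forkhead factor, fell with no overlap (Foxd3 at -0.43 ± 0.09 with adjusted p = 0.0027). Their means at 2h, 87.1, 31.0 and 30.9 CPM, were above those at 0h, 30.2, 14.4 and 9.08 CPM. Otx2 was at 1.75 ± 0.422 CPM at 2h and 2.22 ± 0.824 CPM at 4h (SD, n = 4) and was not called (adjusted p = 0.516).

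Of 12 tested mesendoderm and Nodal pathway genes, 5 rose (41.7%, against 3.8% of all tested genes) and none fell in edgeR's test. Under library-size scaling 2 were called higher, and 1 was with both 4h libraries of clone 4 left out. Beside T, these were Evx1, a homeobox factor of the primitive streak, Lefty2, a Nodal antagonist, Tdgf1 (Cripto), the Nodal coreceptor, and Skil, a SMAD corepressor (Evx1 at 0.91 ± 0.19 with adjusted p = 0.0021, Lefty2 at 0.35 ± 0.10 with adjusted p = 0.0227, Tdgf1 at 0.43 ± 0.08 with adjusted p = 0.000611 and Skil at 0.39 ± 0.10 with adjusted p = 0.0102). Lefty2 had 24.3 and 22.8 CPM in clone 4 and 71.6 and 84.6 CPM in clone 8 at 2h. At 4h, Lefty2 had 34.2 and 26.2 CPM in clone 4 and 96.1 and 105 CPM in clone 8, so each clone separated around levels more than 2-fold apart. The T-box factor Eomes was at 0.36 ± 0.17, with no call. Among 8 tested primitive endoderm genes the laminin chain Lamb1 and the matrix protein Sparc rose (25%, against 3.8% of all tested genes; Lamb1 at 0.71 ± 0.11 with adjusted p = 3.34e-05 and Sparc at 0.22 ± 0.07 with adjusted p = 0.0496). Neither was called under library-size scaling. Lamb1 had the larger value in clone 4 (1.13 ± 0.13 in clone 4, 0.40 ± 0.11 in clone 8), a difference that did not pass adjustment over all genes (adjusted p = 0.232).

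Wnt targets and modulators gave 7 rises (46.7%, against 3.8% of all tested genes) and 2 falls (13.3%, against 3.52%) of 15 tested. Under library-size scaling 2 rose and none fell, and with both 4h libraries of clone 4 left out 3 rose and none fell. In the main fit the 8 modulators gave 5 rises and 1 fall, with a median of 0.50. The 7 targets gave 2 rises and 1 fall, with a median of -0.08. T and Lef1, counted above with other lists, are among the rises. The nuclear effectors Tcf7 and Tcf7l2 and the receptor Fzd7 rose (Tcf7 at 0.40 ± 0.09 with adjusted p = 0.00245, Tcf7l2 at 0.68 ± 0.10 with adjusted p = 2.54e-05 and Fzd7 at 0.61 ± 0.13 with adjusted p = 0.0025), as did the ligand Wnt7b at a low level (mean 0.605 CPM at 2h and 2.23 CPM at 4h). Axin2, a feedback inhibitor of the pathway, and the receptor Fzd5 fell (Axin2 at -0.39 ± 0.10 with adjusted p = 0.00879 and Fzd5 at -0.28 ± 0.09 with adjusted p = 0.0496), and the call for Fzd5 held in only 4 of 19 alternative settings. Cdx2, a homeobox factor of posterior and trophoblast cells, had 3.50 and 4.82 CPM in clone 4 and 1.10 and 0.213 CPM in clone 8 at 2h. At 4h, Cdx2 had 8.47 and 8.18 CPM in clone 4 and 0.949 and 1.32 CPM in clone 8 (log2 fold change 1.08 ± 0.29 SE, adjusted p = 0.0184). The groups separated in clone 4 and overlapped in clone 8, with log2 fold changes of 1.11 ± 0.31 in clone 4 and 0.81 ± 0.65 in clone 8, and the clones' difference did not pass adjustment (adjusted p = 1). Lef1 likewise separated in clone 4 and overlapped in clone 8 (0.88 ± 0.24 in clone 4, 0.19 ± 0.50 in clone 8). Of 10 tested BMP and SMAD genes, Bmp4 and Id1 rose (20%, against 3.8% of all tested genes) and none fell, with 5 positive and a median of 0.0038. With both 4h libraries of clone 4 left out, 7 of 11 were positive, the median was 0.25 and 2 were called higher. Of 9 EMT regulators and cadherins, Snai3 and the bHLH factor Twist1 rose (22.2%, against 3.8%) and none fell. Twist1 went from 3.62 and 3.07 CPM in clone 4 and 2.96 and 3.48 CPM in clone 8 to 8.58 and 10.4 CPM in clone 4 and 6.65 and 6.31 CPM in clone 8 (log2 fold change 1.21 ± 0.18 SE, adjusted p = 2.63e-05), without overlap.

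Of 65 tested ribosome biogenesis genes, 14 rose (21.5%, against 3.8% of all tested genes) and none fell at an adjusted p under 0.05 in edgeR's test. The log2 fold change was positive for 62, with a median of 0.20. None of the 65 was called under library-size scaling, and 4 were with both 4h libraries of clone 4 left out. The examples with the strongest tests were Rrn3, the initiation factor of RNA polymerase I, and Ddx18, a nucleolar helicase (Rrn3 at 0.33 ± 0.07 with adjusted p = 0.00149 and Ddx18 at 0.34 ± 0.07 with adjusted p = 0.00292). Rrn3 had 126 and 127 CPM in clone 4 and 138 and 143 CPM in clone 8 at 2h. At 4h, Rrn3 had 165 and 155 CPM in clone 4 and 175 and 172 CPM in clone 8, with no overlap between groups. Cytosolic ribosomal protein genes were positive in 73 of 78, with a median of 0.13, and 3 were called higher (3.85%, close to the 3.8% of all tested genes). With both 4h libraries of clone 4 left out, 55 of 78 were positive, the median was 0.07 and 1 was called higher. None was called under library-size scaling. Under library-size scaling the median of all genes was 0.10, and these lists are to be read relative to it there. In the cell cycle list, 3 of 18 rose (16.7%, against 3.8%) and 2 fell (11.1%, against 3.52%), with 1 rise and no fall both under library-size scaling and without the 4h libraries of clone 4. Beside Ccnd2, cyclin E1 (Ccne1) and Cdk6 rose and the phosphatase Cdc25a and the factor E2f1 fell (Ccne1 at 0.34 ± 0.08 with adjusted p = 0.00661, Cdk6 at 0.38 ± 0.08 with adjusted p = 0.00228, Cdc25a at -0.32 ± 0.07 with adjusted p = 0.00535 and E2f1 at -0.35 ± 0.10 with adjusted p = 0.0339). Cyclin D1 (Ccnd1) was at 0.15 ± 0.09 and was not called. Of 11 Bcl2 family genes, 3 rose (27.3%, against 3.8% of all tested genes) and none fell, while 7 were negative and the median was -0.03. None was called under library-size scaling, and 1 was higher with both 4h libraries of clone 4 left out. The 3 are among the 8 tested members that promote cell death: Bcl2l11 (Bim), Pmaip1 (Noxa) and Bid (Bcl2l11 at 0.50 ± 0.14 with adjusted p = 0.0199, Pmaip1 at 0.68 ± 0.13 with adjusted p = 0.000887 and Bid at 0.49 ± 0.11 with adjusted p = 0.00359).

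Metabolic genes changed in part. Of 25 tested glycolysis and pentose phosphate genes, 4 rose (16%, against 3.8% of all tested genes) and 1 fell (4.00%, near the 3.52% of all). Library-size scaling left 1 rise and no fall, as did leaving out both 4h libraries of clone 4. Pdk1, the kinase that restrains pyruvate dehydrogenase, had 17.6 and 17.1 CPM in clone 4 and 16.4 and 16.5 CPM in clone 8 at 2h. At 4h, Pdk1 had 28.4 and 24.3 CPM in clone 4 and 31.0 and 33.4 CPM in clone 8 (log2 fold change 0.82 ± 0.10 SE, adjusted p = 1.18e-06). Hexokinase 2 (Hk2) had 153 and 149.8 CPM in clone 4 and 129 and 129 CPM in clone 8 at 2h. At 4h, Hk2 had 221 and 197 CPM in clone 4 and 169.6 and 181 CPM in clone 8 (log2 fold change 0.46 ± 0.08 SE, adjusted p = 0.000277). Both were without overlap, while hexokinase 1 (Hk1) fell, also without overlap (Hk1 at -0.38 ± 0.08 with adjusted p = 0.00211). The lactate genes Ldha and Slc16a1 passed narrowly (Ldha at 0.24 ± 0.08 with adjusted p = 0.0486 and Slc16a1 at 0.25 ± 0.08 with adjusted p = 0.0492). Sterol and fatty acid genes were negative in 23 of 29, with none called higher in edgeR's test and 3 called lower (10.3%, against 3.52% of all tested genes), among them the regulator Insig1 and the enzyme Msmo1 (Insig1 at -0.27 ± 0.07 with adjusted p = 0.017 and Msmo1 at -0.27 ± 0.08 with adjusted p = 0.0442). None was called under library-size scaling, where the list's median was 0.02 beside 0.10 for all genes, and 1 was called lower with both 4h libraries of clone 4 left out, where the median was -0.04. In the amino-acid stress response, 1 of 31 rose (3.23%, near the 3.8% of all tested genes) and 3 fell (9.68%, against 3.52%). None was called under library-size scaling, and 2 were lower with both 4h libraries of clone 4 left out. The stress-induced regulator Nupr1 fell most, and the enzymes Gpt2 and Aldh18a1 fell less (Nupr1 at -1.21 ± 0.27 with adjusted p = 0.00301, Gpt2 at -0.57 ± 0.10 with adjusted p = 0.000115 and Aldh18a1 at -0.31 ± 0.09 with adjusted p = 0.0264), while the secreted protein Stc2 rose (Stc2 at 0.72 ± 0.21 with adjusted p = 0.03).

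Cytoskeletal genes gave 7 rises (28.0%, against 3.8% of all tested genes) and no fall among 25 tested in edgeR's test, with 5 rises left without both 4h libraries of clone 4 and 2 under library-size scaling. The 4 annexin and S100 genes of this list gave 3 of the rises, with a median of 0.99. The 16 genes of actin and its partners gave 3, with a median of 0.04. Zyxin (Zyx), a focal adhesion protein, had 12.6 and 11.8 CPM in clone 4 and 13.7 and 13.4 CPM in clone 8 at 2h. At 4h, Zyx had 19.4 and 20.2 CPM in clone 4 and 19.7 and 18.4 CPM in clone 8 (log2 fold change 0.62 ± 0.13 SE, adjusted p = 0.00229). The actin cross-linker Actn4, the intermediate filament protein Vim and the calcium-binding proteins S100a6 and S100a10 rose as well (Actn4 at 0.39 ± 0.07 with adjusted p = 0.000199, Vim at 0.48 ± 0.08 with adjusted p = 0.000197, S100a6 at 1.39 ± 0.26 with adjusted p = 0.000508 and S100a10 at 1.06 ± 0.16 with adjusted p = 3.37e-05). Cavin1, a coat protein of caveolae, had 30.2 and 24.1 CPM in clone 4 and 20.7 and 20.1 CPM in clone 8 at 2h. At 4h, Cavin1 had 64.3 and 54.7 CPM in clone 4 and 39.3 and 31.3 CPM in clone 8 (log2 fold change 0.97 ± 0.11 SE, adjusted p = 1.91e-07), with no overlap, and was the only one of 3 tested caveolae genes to be called. Among 21 matrix and integrin genes 4 rose (19.0%, against 3.8% of all tested genes), and 1 was called higher under library-size scaling. Lamb1 and Sparc, already counted with the primitive endoderm genes, are among the 4. Plaur, whose promoter is printed above, had 9.71 and 6.57 CPM in clone 4 and 6.93 and 7.95 CPM in clone 8 at 2h. At 4h, Plaur had 21.2 and 20.6 CPM in clone 4 and 13.5 and 14.5 CPM in clone 8 (log2 fold change 1.12 ± 0.16 SE, adjusted p = 7.1e-06), also without overlap, and the basement membrane protein Nid2 rose at a higher level (Nid2 at 0.35 ± 0.07 with adjusted p = 0.000508).

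Growth factors and receptors gave 4 rises (23.5%, against 3.8% of all tested genes) and 2 falls (11.8%, against 3.52%) of 17 tested, and 1 rise and no fall under library-size scaling. Beside Bmp4, the EGF-family ligand Hbegf and the ligand Pdgfa rose without overlap, and the receptor Erbb3 rose with overlap (Hbegf at 0.52 ± 0.13 with adjusted p = 0.00915, Pdgfa at 0.35 ± 0.08 with adjusted p = 0.00398 and Erbb3 at 0.28 ± 0.08 with adjusted p = 0.0358). The receptor Kit and Fgf4 fell (Kit at -0.31 ± 0.07 with adjusted p = 0.00432 and Fgf4 at -0.49 ± 0.09 with adjusted p = 0.000222). Of 11 LIF and STAT3 genes, Il6st (gp130), the signalling subunit of the LIF receptor, the kinase Pim1 and Csf3r fell (27.3%, against 3.52% of all tested genes), and the feedback inhibitor Socs2 rose (9.09%, against 3.8%; Il6st at -0.33 ± 0.08 with adjusted p = 0.00577, Pim1 at -0.35 ± 0.08 with adjusted p = 0.00452 and Socs2 at 0.35 ± 0.10 with adjusted p = 0.0202). The list's median was -0.08. Under library-size scaling 1 gene was lower and none higher, with a median of 0.03 beside 0.10 for all genes, and with both 4h libraries of clone 4 left out 1 was lower and none higher, with a median of 0.04. Il6st had 79.4 and 80.6 CPM in clone 4 and 77.0 and 82.1 CPM in clone 8 at 2h. At 4h, Il6st had 61.5 and 66.4 CPM in clone 4 and 61.3 and 68.1 CPM in clone 8, a narrow but complete separation. Of 13 Eph receptors and ephrins, Epha2 and Epha7 rose (15.4%, against 3.8%) and Epha4 fell (7.69%, against 3.52%; Epha2 at 0.46 ± 0.10 with adjusted p = 0.00237, Epha7 at 0.67 ± 0.16 with adjusted p = 0.00878 and Epha4 at -0.43 ± 0.08 with adjusted p = 0.000819). No gene of this list was called under library-size scaling.

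Of the 111 called genes of the lists that are not among the 24 named by size, 29 overlap an antisense gene in their exons (such as Jun, Zfp36, Dusp1, Sox4 and Zyx) and 5 hold a model on the same strand (Tfcp2l1, Foxd3, Nop56, Nop58 and Rpl32), with the same limit on assigning reads. Some calls named above held in fewer than 9 of the 19 alternative settings, among them those of Lef1 (8), E2f1 (8), Erbb3 (8), Sparc (7), Ldha (7), Msmo1 (6) and Slc16a1 (5). Where 7.32% of all tested genes were called in either direction, edgeR's test called no gene among the 53 tested replication-dependent histone genes (median -0.11, 40 negative), the 11 snoRNA host genes (median -0.16, 7 negative), the 7 protein-coding genes of the mitochondrial genome (median -0.09, 7 negative) and the 4 markers of 2-cell-like cells (median 0.34, 4 positive). At an unadjusted p under 0.05, 1 histone gene, 3 snoRNA host genes and 1 mitochondrial gene were lower and 1 marker of 2-cell-like cells was higher, beside 10.4% of all tested genes lower and 10.5% higher. The sign of the mitochondrial median turned with both 4h libraries of clone 4 left out. In that setting the histone median was -0.03, with 24 of 54 positive. The medians there were -0.14 for snoRNA hosts and 0.53 for markers of 2-cell-like cells. The share of counts from mitochondrial protein-coding genes was 1.39% at 2h and 1.33% at 4h, and the exact permutation test within clones gave a two-sided p of 0.778. In the plot of list members, formative, mesendoderm and feedback genes have high medians, and most members of all lists lie close to 0.

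**Figure D5:**
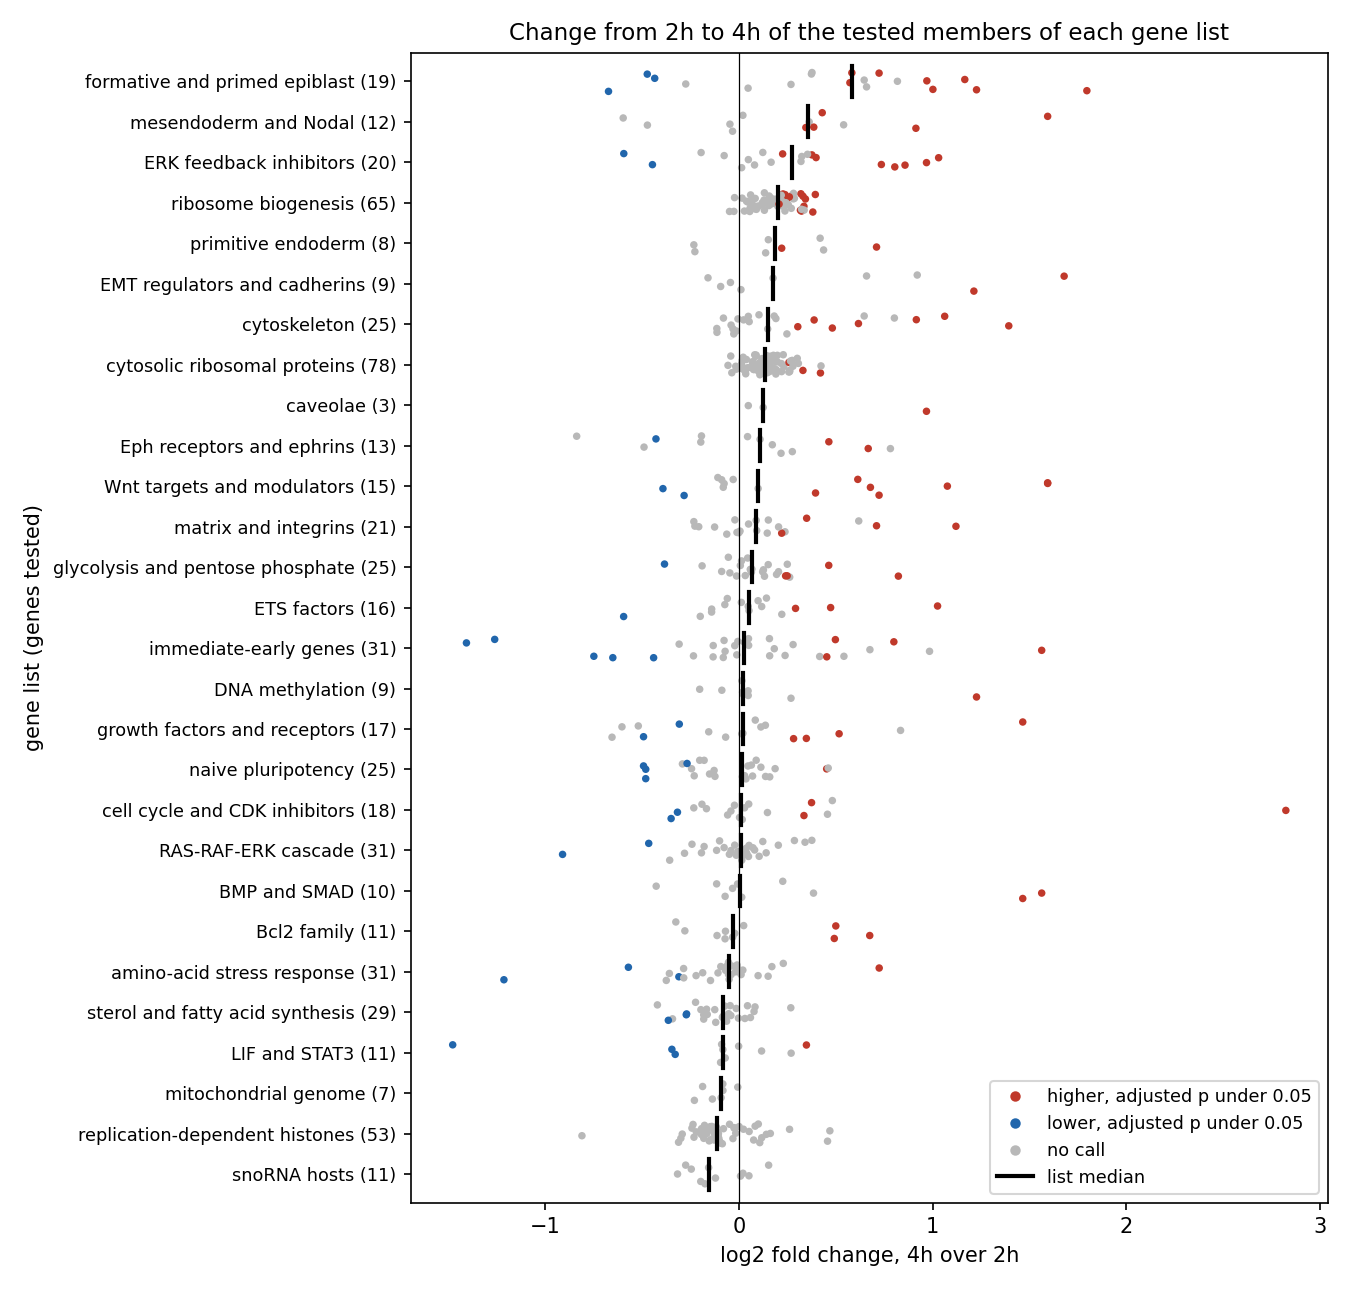
Log2 fold change from 2h to 4h (x axis) of each tested member of the gene lists (y axis, with the number tested), in red where higher and in blue where lower at an adjusted p under 0.05, grey without a call, with a black bar at the list median. Marker lists are not plotted, and the plotted medians run from 0.58 for formative and primed epiblast genes to -0.16 for snoRNA hosts.

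The response of 4 genes (0.0327% of those tested) differed between the clones at an adjusted p under 0.05. Peg10 had 20.2 and 18.8 CPM in clone 4 and 15.6 and 15.0 CPM in clone 8 at 2h. At 4h, Peg10 had 76.2 and 81.2 CPM in clone 4 and 23.7 and 25.8 CPM in clone 8. Clone 4 therefore rose by 1.99 ± 0.14 and clone 8 by 0.69 ± 0.16 on the log2 scale (SE), and the difference, clone 8 minus clone 4, was -1.30 ± 0.21 (adjusted p = 0.00227). Each clone separated by itself. Gm25732, a small RNA model, fell in clone 4 from 14.6 and 15.8 CPM at 2h to 0.66 and 1.17 CPM at 4h and rose in clone 8 from 7.10 and 1.42 to 17.8 and 18.2 CPM (difference 6.16, adjusted p = 0.000344). Gm43333 showed the same pattern, from 11.4 and 15.3 to 1.98 and 1.29 CPM in clone 4 and from 4.90 and 3.05 to 8.35 and 21.8 CPM in clone 8 (difference 4.78, adjusted p = 0.000818). Mir6240 was the other gene (difference 2.79, adjusted p = 0.0441). The share of counts in the 8 most abundant models moved alongside in clone 4, from 59.3% and 58.7% at 2h to 42.0% and 51.7% at 4h, and was 62.9% and 53.1% at 2h and 60.4% and 62.4% at 4h in clone 8. Its part in these differences was not tested. At an unadjusted p under 0.05, 520 genes (4.26% of those tested) differed, fewer than that threshold passes by chance. Without the first 2h library of clone 4 no gene passed, and Peg10 then had an adjusted p of 0.157 with a difference of -1.38. Without the first 4h library of clone 8 Peg10 also lost its call (difference -1.24, adjusted p = 0.100).

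Genes that fell were longer than the rest. Among protein-coding genes, the median length from start to end in GENCODE M21 was 50358 bases for those that fell, 25600.5 for those that rose and 24909 for all tested, and the medians of summed exon length were 6196, 4693 and 4617 bases. With the tested protein-coding genes divided by their length from start to end into 3 groups of like size, 6.15% fell and 4.54% rose in the longest group, and 1.87% fell and 3.85% rose in the shortest. The median level at 2h also differed, 17.2 CPM in the longest group and 9.45 CPM in the shortest, and its part in the counts of calls was not tested. GC content was similar, with medians of 50.8% for genes that fell, 49.4% for those that rose and 49.8% for all. Protein-coding genes were 97.8% of the rises, 96.0% of the falls and 93.0% of all tested genes.

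The comparison of rev with 0h shares no library with that of 4h with 2h, and it describes where these genes stood after MEK inhibition. Of the 464 genes that rose, 233 (50.2%) were called above 0h in rev, against 12.4% of all tested genes, and 15 (3.23%) were called below it. Of the 430 that fell, 141 (32.8%) were called below 0h, against 9.86% of all tested genes, and 44 (10.2%) above. The 233 were 15.3% of the 1518 genes above 0h in rev, and the 141 were 11.7% of the 1204 below it. The median log2 difference of rev from 0h was 0.32 for genes that rose, -0.19 for genes that fell and -0.01 for all. Jade2, Nrp2 and Lin28a were called above 0h in rev (log2 difference 1.65, 1.89 and 1.63), whereas Bmp4, Id1 and Exoc3l were not (0.23, 0.76 and -0.0022). Under library-size scaling, which moved the median of all genes to -0.32 in this comparison, 54 of the rises were above 0h, against 0.86% of all tested genes, and 116 of the falls below, against 7.41%. Without rev clone 8 replicate 2, the library with the highest share in the abundant models, the counts were 207 and 126. In that setting 10.2% of all tested genes were above 0h and 8.73% below.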

How the data were processed

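RNA depleted of ribosomal RNA was sequenced, and the deposited values are raw read counts per gene. The submitters' processing notes name bcl2fastq 2.19.1, STAR 2.5.3a and the build mm10; the counting tool, its annotation and its strand setting were not given in the sources used here. All 52636 identifiers were looked up in GENCODE M21 (GRCm38), and 52489 matched.

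Each title gave a library's group, clone and replicate number. The analysis used edgeR 4.0.16 and limma 3.58.1 under R 4.3.3. After filterByExpr over the 4 groups, 12215 genes were left; TMM factors were applied, and edgeR's quasi-likelihood test used a design of group plus clone over the 16 libraries. Adjusted p-values are Benjamini-Hochberg over all tested genes, two-sided, at 0.05. The SE is the absolute log2 fold change divided by the square root of the F statistic. The clones' own contrasts came from a design with 1 term for each combination of group and clone. Shares of counts were compared with exact permutation tests. The pipeline was tested on simulated data.

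Genes were named by rule: in each direction the 12 called genes of largest log2 fold change among those averaging 5 CPM or more whose same-numbered libraries all moved one way, the 3 called most strongly for a difference between clones, and genes of the lists. The comparison, the lists and the rule were chosen with earlier results of these data known, so no list is independent evidence. Lists share members, among them Lamb1, Sparc, T, Lef1, Id1, Bmp4 and Fgf4, and such genes are counted in each list that holds them. Alternatives were other scalings, filters and designs, DESeq2 1.42.0, and leaving out libraries; leaving out both 4h libraries of clone 4, or rev clone 8 replicate 2, was chosen after seeing the data. Floors of 3 counts cover counting error only, since the counts carry no molecular identifiers. Values of 3 genes of the lists are not reported here.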

Additional observations from a re-analysis of the deposited data

Results flagged for a closer look

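In 7 of 310 groups of 4 libraries of the genes named in the text, 1 library stood apart from the other 3 by Dixon's criterion at the 95% level, which by chance picks about 1 in 20 groups. Exoc3l was at 7.88 CPM in the second 2h library of clone 4 (4.26 to 4.65 CPM in the others) and A4galt at 17.1 CPM in the same library (23.5 to 23.8 CPM in the others). That library had the fewest counts of the 8. Prickle2 was at 11.5 CPM in the first 2h library of clone 4, beside 14.7 to 15.0 CPM. At 4h, Il17rd was at 57.9 CPM (65.0 to 65.3 CPM) and Stc2 at 4.56 CPM (5.26 to 5.39 CPM) in the first library of clone 8. Zfp36 was at 3.41 CPM in the first 4h library of clone 4 (6.31 to 6.84 CPM), and Prdm14 at 18.7 CPM in the second of clone 8 (10.8 to 11.6 CPM). The calls for Exoc3l, A4galt and Prickle2 held in all 19 alternative settings, whereas those for Zfp36, Il17rd, Prdm14 and Stc2 were each lost in some.

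In 4 genes the change from 2h to 4h differed between the clones by the test of the difference itself (edgeR, adjusted p under 0.05). The difference, clone 8 minus clone 4 on the log2 scale, was 6.16 for Gm25732, 4.78 for Gm43333, 2.79 for Mir6240 and -1.30 for Peg10. In DESeq2 the adjusted p was 0.00208 for Gm25732 and 0.0189 for Peg10, 0.167 for Gm43333 and 1.00 for Mir6240. The 8 models of mostly ribosomal RNA sequence took their smallest share of counts in the 4h libraries of clone 4, and the part of that share in these differences was not tested.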

How the results depend on the processing

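No called gene that was called again under an alternative had the opposite sign. RLE size factors gave 468 genes higher and 420 lower, no low-count filter 320 and 447, the 8 libraries alone 553 and 477, DESeq2 394 and 301, and removal of the 8 most abundant models 461 and 427. Counts moved by over 1.5 times with library-size scaling (88 higher, 12 lower), without clone (129 and 90), with a 2-fold minimum (74 and 45) and with both 4h libraries of clone 4 left out (140 and 81). Leaving out 1 library gave 303 to 422 genes higher and 260 to 379 lower. The falls beyond 1.5 times were without the first 2h library of clone 4 (303 and 261), the second 4h library of clone 4 (306 and 278), the first 4h library of clone 4 (260 lower) and the first 4h library of clone 8 (274 lower). The cause was not tested. Genes that differed between clones numbered 0 to 7 with 1 library left out (0 without 2h clone 4 replicate 1, at 4 with all) and 2 in DESeq2. Of 464 rises, 54 were above 0h in rev under library-size scaling, against 233. The median length of genes that fell was 2.02 times that of all tested by span and 1.34 times by exon length. Under library-size scaling Map2k1 was at 0.045 and Mapk3 at 0.035 (log2), below the 0.10 of all genes, and Myc ranged from -0.17 to 0.048 with 1 library left out. Of 135 called genes followed, 31 kept their call in all 19 settings and 95 lost it under library-size scaling. A replicate block gave 426 and 368 genes and recalled 87.5% of the calls. Residuals of same-numbered libraries correlated at -0.17 in clone 4 and 0.18 in clone 8. A single value per clone, of opposite sign, cannot show whether same-numbered cultures were paired. The titles give only the number. Depth limits low genes: 3 counts were up to 1.31 CPM.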

Other observations

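Some further genes moved that belong to none of the lists, and they were chosen after their values were seen. Beside Ccn2, the matrix-associated protein Ccn1 (Cyr61) and the angiomotin family member Amotl2 fell, all of them known targets of the YAP and TEAD factors. Amotl2 had 86.0 and 71.4 CPM in clone 4 and 58.8 and 58.3 CPM in clone 8 at 2h. At 4h, Amotl2 had 41.2 and 41.8 CPM in clone 4 and 35.3 and 34.5 CPM in clone 8 (log2 fold change -0.84 ± 0.08 SE, adjusted p = 7.98e-09 in edgeR's test). Ccn1 had 17.2 and 12.7 CPM in clone 4 and 12.6 and 11.8 CPM in clone 8 at 2h. At 4h, Ccn1 had 6.60 and 7.94 CPM in clone 4 and 7.79 and 7.89 CPM in clone 8 (log2 fold change -0.84 ± 0.16 SE, adjusted p = 0.000757). No library of 4h reached any of 2h in either gene, and their 0h means were 29.1 and 3.53 CPM. The factor Tead4 rose (0.76 ± 0.10, adjusted p = 1.79e-06), with higher levels in clone 8 than in clone 4 at both times, so that the groups overlapped across clones.

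The neurofilament genes Nefm and Nefl, which lie on chromosome 14 on opposite strands with overlapping models, both rose, and reads in the overlap cannot be told apart. Nefm had 118 and 105 CPM in clone 4 and 91.3 and 91.0 CPM in clone 8 at 2h. At 4h, Nefm had 209 and 198 CPM in clone 4 and 186 and 168 CPM in clone 8 (log2 fold change 0.92 ± 0.10 SE, adjusted p = 1.15e-07), and Nefl was at 0.69 ± 0.11 (adjusted p = 3.06e-05). The retinoic acid receptor Rarg went from 32.1 and 32.4 CPM in clone 4 and 23.6 and 28.0 CPM in clone 8 at 2h to 56.4 and 64.5 CPM in clone 4 and 60.8 and 55.8 CPM in clone 8 at 4h (log2 fold change 1.04 ± 0.09 SE, adjusted p = 1.47e-09). The ligand Tgfb1 and the RNA sensor Ddx58 (RIG-I) rose without overlap between groups (Tgfb1 at 1.10 ± 0.15 with adjusted p = 6.05e-06 and Ddx58 at 1.34 ± 0.14 with adjusted p = 2.52e-08). These are descriptions of single genes, and no group test was made on them.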
